A study of Homo sapiens with 6 samples.

Results

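Mitotic kinases, cyclins and kinetochore genes drive a cell from the end of G2 through chromosome alignment, separation and division. The 51 genes described here were chosen by symbol, and all 51 were found among the 56638 gene symbols counted in each library. Cyclin B bound to the kinase CDK1 starts mitosis once WEE1 and PKMYT1, which hold CDK1 inactive by phosphorylation, are overcome by the CDC25 phosphatases. Kinetochores then join chromosomes to the spindle, and the spindle checkpoint holds back the anaphase-promoting complex (APC/C) until every chromosome is attached. The APC/C with its activators CDC20 and FZR1 marks securin and cyclin B for destruction, which ends mitosis. Transcripts of many of these genes accumulate in G2 and M under the control of DREAM, MuvB, B-MYB (MYBL2) and FOXM1, and they are abundant in proliferating colorectal cancer cells.

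The study sequenced RNA of a human colorectal cancer cell line after transfection of siRNA against the long noncoding RNA GLCC1 (AF339830), to learn what loss of this transcript does to gene expression. By sample title, 3 libraries came from cells given a nonspecific control siRNA and 3 from cells given GLCC1 siRNA, and all cells were cultured in RPMI-1640 with fetal bovine serum. The line is SW480, an established colorectal adenocarcinoma line, by the labels, but DLD-1 by the published methods, and the time from transfection to harvest was not given in the sources used here. The genotype labels of all 6 libraries end in siRNA1, and nothing states that the replicates were separate cultures, so p-values measure only the spread between these libraries, which may be technical.

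The labels conflict on the direction of every value below. The sample titles, source names and genotypes give the grouping used here, whereas the library names stored with the control samples hold the letters AF, as in AF339830, and those stored with the GLCC1 siRNA samples hold NC. If the library names were right, every fold change would turn its sign and every p-value would stay as it is. The targeted RNA cannot settle this, because 0 symbols in the files read GLCC1 or AF339830. Higher and lower therefore mean higher and lower in the libraries labelled GLCC1 siRNA. Epithelial identity was clear in both groups: the 7 epithelial markers summed to 5512 to 6031 CPM (counts scaled to a library of 1000000) with control siRNA and to 2193 to 2592 CPM with GLCC1 siRNA, while 7 of 8 markers of blood, stromal and endothelial cells were below 1 CPM in every library, the exception being COL1A1. KRT8 was the largest part of the epithelial sum, at 3409 to 3768 CPM with control siRNA and 1006 to 1301 CPM with GLCC1 siRNA. For 6 of the 7 markers all GLCC1 siRNA libraries were below all control libraries. VIL1 went the other way, at 225 to 256 CPM against 198 to 210 CPM. The epithelial sum was lower alongside the mitotic changes below, and its part in them was not tested.

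Gene counts added up to between 11948790 and 19042516 read pairs, and GLCC1 siRNA replicate 2 was the smallest library. This library also stood apart from the other libraries of its group. The share of read pairs outside any gene was 14.2% in it, 12.5% to 12.7% in the other GLCC1 siRNA libraries and 11.2% to 11.5% in the control libraries. Chi-square per degree of freedom against the other libraries of its group was 18.1 and 19.0, whereas other pairs of the same group gave 1.93 to 4.16. Across the 51 mitotic genes, its difference from the mean of replicates 1 and 3 ranged from −0.63 to 0.52 on the log2(CPM + 0.5) scale and followed the GC content of their exons. Pearson's r with GC content was −0.90 and Spearman's rho was −0.88 over the 51 genes, which share these libraries and are not independent. Between replicates 1 and 3 of the same group, r with GC content was −0.02. Control replicate 2 leaned the other way with r = 0.75, but with a smaller spread, an SD of 0.097 against 0.30. Low-GC genes such as CENPE (34.8% GC) and CDK1 (34.9%) were thus high in GLCC1 siRNA replicate 2, and high-GC genes such as FZR1 (63.5%) and CDC20 (57.6%) were low in it. Results below are given with and without this library where it decides them.

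**Figure D1:**
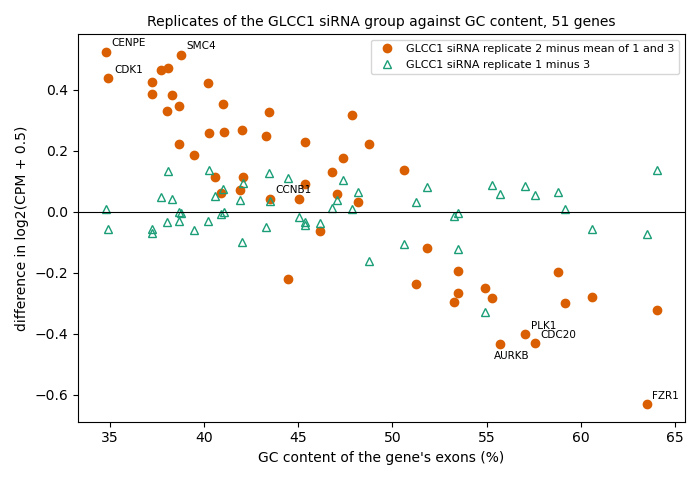
GC content of the exons of each of the 51 mitotic genes (x axis, percent) against the difference between libraries of the GLCC1 siRNA group (y axis, log2(CPM + 0.5)). Filled circles, replicate 2 minus the mean of replicates 1 and 3, run from 0.52 at low GC content to −0.63 at high GC content, whereas open triangles, replicate 1 minus replicate 3, show no slope.

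Promoters of these genes are a textbook case of shared cell cycle control, since many carry the cell cycle genes homology region (CHR), bound by MuvB complexes, and CCAAT boxes, bound by NF-Y. RefSeq promoter windows on GRCh38.p14, from 250 bases before to 50 after the transcription start, were matched by symbol for 40 of the 51 genes. The letters TTTGAA, the consensus CHR, and CCAAT were searched on both strands, and matches to one can share at most 1 base with matches to the other. TTTGAA was present in the windows of 26 of 40 (65.0%) mitotic genes and of 18.2% of all 27305 symbols with a window. CCAAT was present in 28 of 40 (70.0%) and in 39.7% of all symbols, and both in 18 of 40 (45.0%) and 7.26%. Both motifs were present for 4 of 9 genes that rose, 2 of 5 that fell and 12 of 26 that were not called. In the same order, TTTGAA was present for 5, 3 and 18 genes and CCAAT for 7, 4 and 17. The 11 genes without a window are left out, the groups are small, and a link between motif and direction was not tested. These counts describe letters in a window and not sites in use. The 4 windows below belong to the paralogous B cyclins, which moved in opposite directions, and to CDC20 and SPC25, the genes with the lowest and the highest fold change of the 51. Matches to TTTGAA or CCAAT on either strand are in capitals. The windows lie at chr5:69166900-69167199 (+) for CCNB1, chr15:59104896-59105195 (+) for CCNB2, chr1:43358731-43359030 (+) for CDC20 and chr2:168890381-168890680 (−) for SPC25, and each is written 5′ to 3′ on the strand of its gene.
CCNB1: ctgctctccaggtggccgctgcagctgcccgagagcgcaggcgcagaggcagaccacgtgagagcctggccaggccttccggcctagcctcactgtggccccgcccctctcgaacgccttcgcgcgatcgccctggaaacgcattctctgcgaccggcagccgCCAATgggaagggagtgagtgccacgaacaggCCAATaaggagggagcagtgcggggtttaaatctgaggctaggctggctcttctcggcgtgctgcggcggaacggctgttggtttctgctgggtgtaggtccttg
CCNB2: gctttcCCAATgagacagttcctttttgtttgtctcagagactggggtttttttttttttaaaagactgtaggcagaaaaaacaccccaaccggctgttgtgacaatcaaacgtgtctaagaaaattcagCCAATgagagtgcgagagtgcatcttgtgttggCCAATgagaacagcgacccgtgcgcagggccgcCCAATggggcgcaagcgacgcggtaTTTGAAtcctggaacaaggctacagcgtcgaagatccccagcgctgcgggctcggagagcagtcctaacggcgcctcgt
CDC20: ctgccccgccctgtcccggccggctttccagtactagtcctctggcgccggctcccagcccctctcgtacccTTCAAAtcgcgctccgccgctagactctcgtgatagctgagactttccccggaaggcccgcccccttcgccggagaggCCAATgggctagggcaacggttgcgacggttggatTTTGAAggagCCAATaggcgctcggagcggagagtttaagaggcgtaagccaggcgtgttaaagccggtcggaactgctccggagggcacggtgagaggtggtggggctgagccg
SPC25: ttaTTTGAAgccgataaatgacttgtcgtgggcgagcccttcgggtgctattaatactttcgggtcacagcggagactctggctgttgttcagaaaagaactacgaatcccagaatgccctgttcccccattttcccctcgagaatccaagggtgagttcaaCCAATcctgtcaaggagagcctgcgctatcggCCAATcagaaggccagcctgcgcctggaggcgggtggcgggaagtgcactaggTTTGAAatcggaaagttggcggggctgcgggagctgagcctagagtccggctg
CCNB1, which fell, has CCAAT starting at −87 and −55 from the transcription start and no TTTGAA in this window. CCNB2, which rose, has CCAAT at −244, −120, −87 and −54 and TTTGAA at −29. CDC20, which fell, and SPC25, which rose, each hold both motifs, with TTTGAA at −178 and −65 in CDC20 and at −247 and −3 in SPC25.

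The 51 genes did not move as a block. With edgeR's quasi-likelihood test and Benjamini-Hochberg adjustment over all 23074 genes tested (adjusted p under 0.05), 12 rose, 9 fell and 30 were not called, and their median log2 fold change was 0.08, beside 0.03 over all genes tested. All 51 were tested, with between 322 and 34121 counts per gene and library. The 21 called genes are 41.2% of the 51. Of all genes tested, 31.6% were called, 14.9% higher and 16.7% lower. Among the 10378 abundant genes, with 10 CPM or more on average, a level that every one of the 51 exceeded, 49.9% were called, 20.1% higher and 29.8% lower. The share of called mitotic genes thus lay below that of genes of like abundance, and nothing about mitosis in particular is read from it. The median log2 fold change of the abundant genes was −0.07, beside 0.08 for the 51. Without GLCC1 siRNA replicate 2 these medians were −0.06 and 0.02, and the difference was not tested. The changes were moderate, since 6 genes (CCNB1, BUB3, CENPH, SPC25, CDC20 and PTTG1) differed by 1.5-fold or more and 0 by 2-fold or more. In 26 of the 51, the libraries of the groups did not overlap in CPM, 16 with all GLCC1 siRNA libraries above and 10 below. The same held for 63.9% of the abundant genes. Because the RNA came from unsorted cultures, fewer cells in G2 and M and less RNA per cell cannot be told apart.

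GLCC1 siRNA replicate 2 decided how many genes passed. Without it, which left 2 GLCC1 siRNA libraries, 19 of the 51 rose and 16 fell (68.6%), beside 67.5% of the abundant genes. When a smooth trend on GC content was removed from every library, with all 6 libraries kept, 23 rose and 12 fell (68.6%), beside 68.1% of the abundant genes with a GC value. These fits called 31 of the 51 in common, all 31 in the same direction. No called gene lost its call in either. The genes gained in both were CDK1, CDCA8, INCENP, CENPI, ESPL1, TOP2A and FOXM1, which were higher, and TTK, DSN1 and ANLN, which were lower. Of these fits, the one without replicate 2 alone gained BUB1B, MAD2L1, CENPE and SMC4 as lower, and the one with the GC trend removed alone gained PKMYT1, CENPA, UBE2S and NCAPG as higher. The 12 called in neither of these fits nor in the fit of all 6 libraries were CDC25B, CDC25C, BUB1, CENPC, CENPF, NUF2, MIS12, FZR1, NCAPH, PRC1, ECT2 and RACGAP1.

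**Figure D2:**
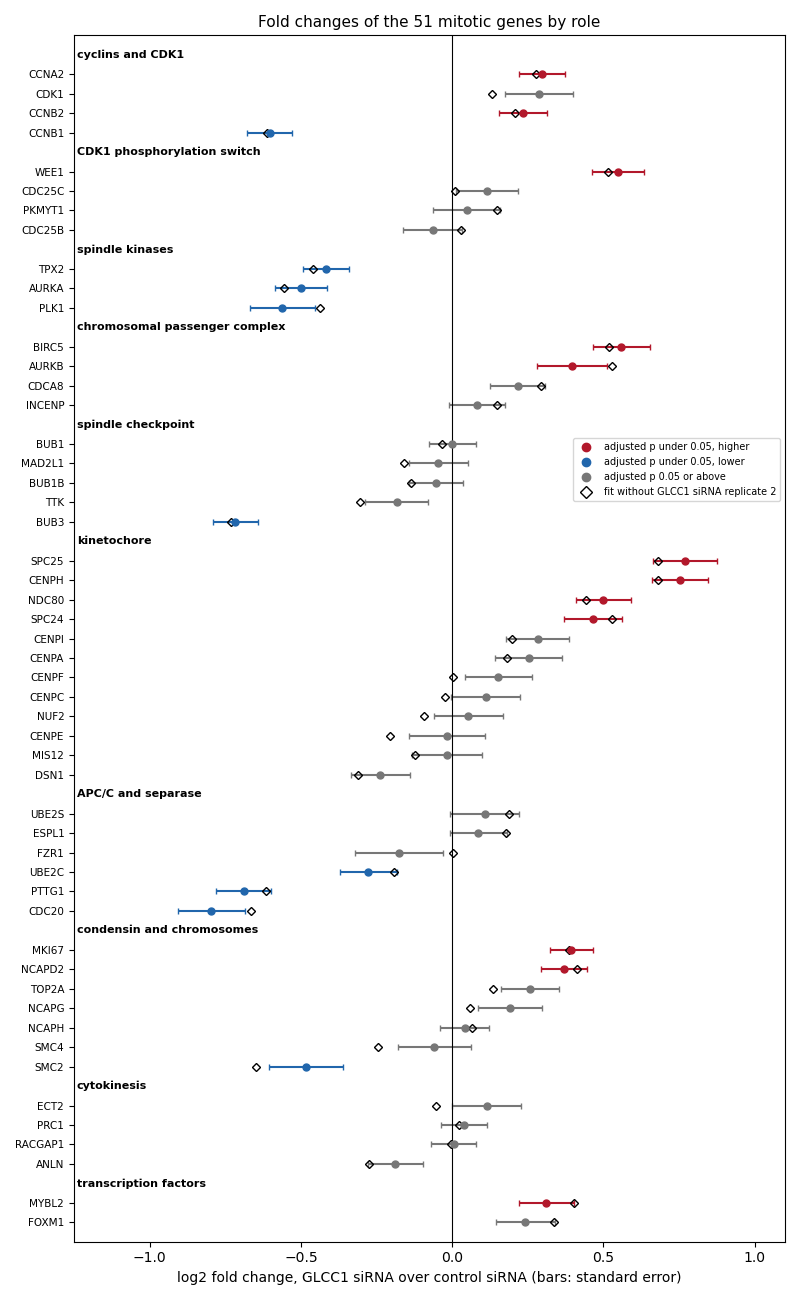
Log2 fold change (GLCC1 siRNA over control siRNA, x axis) of the 51 mitotic genes, grouped by role, with 3 libraries per group. Circles and bars are the edgeR estimate and its standard error, red for the 12 genes that rose, blue for the 9 that fell and grey for the 30 not called, and open diamonds are the estimates without GLCC1 siRNA replicate 2.

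The B cyclins, which activate CDK1 at the entry into mitosis, moved in opposite directions. CCNB1 (hg19 chr5:68462962-68474072) was at 250.9, 242 and 254.5 CPM in control replicates 1, 2 and 3 and at 164.5, 167 and 160.3 CPM in GLCC1 siRNA replicates 1, 2 and 3. The groups were far apart and the replicates close together, GLCC1 siRNA replicate 2 included, and CCNB1 fell by 0.60 ± 0.08 on the log2 scale (SE, n = 3 per group, edgeR adjusted p = 4.1e-05). CCNB2 was at 110.0, 117 and 115 CPM in the control libraries and at 129, 139.8 and 133 CPM with GLCC1 siRNA. It rose by 0.23 ± 0.08 (edgeR adjusted p = 0.039), a small difference whose call was lost when any of the control libraries or GLCC1 siRNA replicate 3 was left out (adjusted p = 0.066 to 0.17). CCNA2, the A-type cyclin of S and G2 phase, was at 157, 149.7 and 153 CPM in the control libraries and at 188, 194.5 and 183 CPM with GLCC1 siRNA, and rose by 0.30 ± 0.08 (edgeR adjusted p = 0.0089), a call lost without control replicate 2 or 3 (adjusted p = 0.054 to 0.058). CDK1 itself was at 202, 200.1 and 188 CPM in the control libraries and at 210.5, 291 and 219 CPM with GLCC1 siRNA. All its GLCC1 siRNA libraries were above all control libraries, but replicate 2 stood far above the other ones, and the log2 fold change was 0.29 ± 0.11 (edgeR adjusted p = 0.067) with it and 0.13 (adjusted p = 0.041) without it. CDK1 and TOP2A also passed when replicate 1 or 3 of the GLCC1 siRNA group was left out. Neither passed when a control library was left out instead (for CDK1, edgeR adjusted p = 0.13 to 0.22). With a block on replicate number, the edgeR adjusted p was 0.07 for CDK1 and 0.083 for TOP2A.

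Within a library, the ratio of CCNB1 to CCNB2 counts was 2.28, 2.07 and 2.21 in the control libraries and 1.27, 1.20 and 1.20 in the GLCC1 siRNA libraries. The ratio was 0.559 of its control value, and it does not depend on how libraries are scaled to each other. Ratios of counts are not corrected for gene length and are compared between libraries only. Ratios were taken for 10 pairs of genes with related roles, chosen with the values known. With 3 libraries per group, an exact permutation test cannot give a p-value below 0.1, so no pair could pass. Ratios of other pairs of genes were not taken, so the count of separated pairs has no background. The groups did not overlap in 8 of the 10 pairs and overlapped for CDC25B over CDC25C and for BUB1 over BUB1B.

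**Figure D3:**
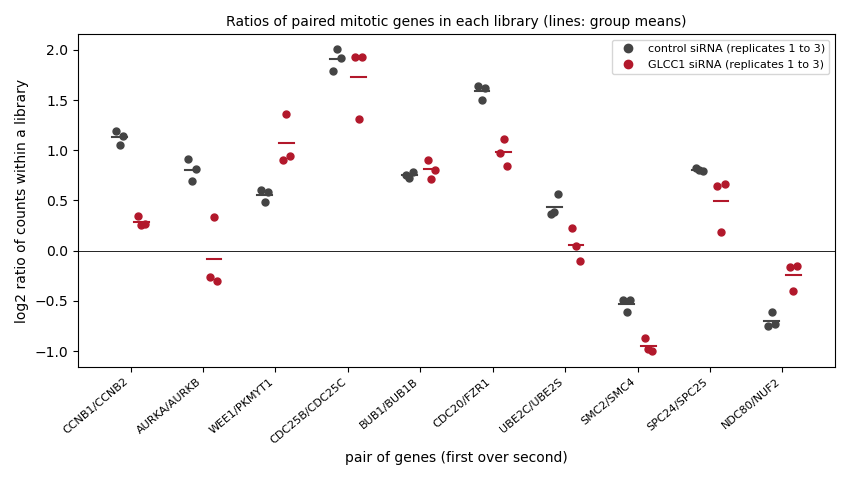
Log2 ratio of the counts of the first gene to those of the second within each library (y axis) for 10 pairs of mitotic genes (x axis), in grey for the 3 control and in red for the 3 GLCC1 siRNA libraries. Lines are group means, and the CCNB1/CCNB2 ratio sits between 2.07 and 2.28 in control libraries and between 1.20 and 1.27 with GLCC1 siRNA on the linear scale.

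Of 4 genes that set the phosphorylation of CDK1, 1 passed the test (25.0%, beside 49.9% of the abundant genes). WEE1, the nuclear kinase that inhibits CDK1, was at 66.8, 67.8 and 63.4 CPM in the control libraries and at 97.2, 102 and 90.9 CPM with GLCC1 siRNA. Every GLCC1 siRNA library was above every control library, and WEE1 rose by 0.55 ± 0.09 (edgeR adjusted p = 2.6e-04). PKMYT1, the membrane-bound kinase with the same target, had a log2 fold change of 0.05 ± 0.11, and was called higher, at 0.24 (edgeR adjusted p = 0.0049), once the GC trend was removed. The activating phosphatases CDC25B and CDC25C had values of −0.06 ± 0.10 and 0.11 ± 0.10, and their groups overlapped. Without GLCC1 siRNA replicate 2 the value of CDC25C was 0.0087.

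PLK1 and AURKA, kinases that build the spindle, and TPX2, which binds and activates AURKA on spindle microtubules, were lower, 3 of 3 genes in this small group, beside 29.8% called lower among the abundant genes. PLK1, which acts at centrosomes, kinetochores and the midbody, was at 120.5, 128 and 119.9 CPM in the control libraries and at 93.0, 68.2 and 87.7 CPM with GLCC1 siRNA. It fell by 0.56 ± 0.11 (edgeR adjusted p = 0.0013), and without replicate 2, its lowest library, by 0.44. AURKA, the centrosomal Aurora kinase, was at 130.1, 123.5 and 124 CPM in the control libraries and at 88.4, 96.6 and 82.2 CPM with GLCC1 siRNA, and fell by 0.50 ± 0.09 (edgeR adjusted p = 6.0e-04). TPX2 went from 381 ± 1.80 CPM to 285 ± 15.4 CPM (SD, n = 3) and fell by 0.42 ± 0.08 (edgeR adjusted p = 8.4e-04).

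In the chromosomal passenger complex, which corrects faulty attachments at centromeres and later works at the midzone, 2 of 4 genes rose and 0 fell. AURKB, its kinase, was at 68.9, 76.6 and 70.8 CPM in the control libraries and at 106, 76.8 and 102 CPM with GLCC1 siRNA. Replicate 2 barely cleared the highest control library, and AURKB rose by 0.40 ± 0.11 (edgeR adjusted p = 0.017). Without replicate 2, with only the libraries at 106 and 102 CPM left in its group, the rise was 0.53 (edgeR adjusted p = 8.4e-11). The call was lost without replicate 1 or 3 of either group (edgeR adjusted p = 0.058 to 0.081). BIRC5 (survivin), which brings the complex to centromeres, was at 27.8, 26.8 and 27.9 CPM in the control libraries and at 37.85, 43.3 and 40.8 CPM with GLCC1 siRNA, and rose by 0.56 ± 0.09 (edgeR adjusted p = 4.9e-04). CDCA8 (borealin) and INCENP, the scaffold, had log2 fold changes of 0.22 ± 0.09 and 0.08 ± 0.09 and were not called. They passed without replicate 2, at 0.29 and 0.15. The ratio of AURKA to AURKB, catalytic paralogs, was 1.89, 1.61 and 1.75 in the control libraries and 0.836, 1.26 and 0.809 with GLCC1 siRNA. Every GLCC1 siRNA library was below every control library, with replicate 2 the nearest to them.

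In the spindle checkpoint, which delays anaphase while kinetochores are unattached, 1 of 5 genes was called. BUB3, the partner that takes BUB1 and BUBR1 to kinetochores, was at 284.7, 290.3 and 294 CPM in the control libraries and at 173.5, 181 and 174 CPM with GLCC1 siRNA. It fell by 0.72 ± 0.07 (edgeR adjusted p = 8.7e-06), with no library near the other group. Its binding partner BUB1 had a log2 fold change of 0.00 ± 0.08. BUB1B, which encodes BUBR1, was at 140.0, 137 and 140.1 CPM in the control libraries and at 124, 150.0 and 128 CPM with GLCC1 siRNA, so that replicate 2 lay above all control libraries and the other libraries below them (−0.05 ± 0.09). MAD2L1, the inhibitor of CDC20, and TTK, the kinase that starts checkpoint signalling, had values of −0.05 ± 0.10 and −0.18 ± 0.11. Without replicate 2, BUB1B, MAD2L1 and TTK were lower at −0.13, −0.16 and −0.30, and all 3 passed the test.

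Among 12 kinetochore genes, 4 rose and 0 fell, a called share of 33.3% beside 49.9% of the abundant genes. Of these 4, 3 encode subunits of the NDC80 complex, which grips spindle microtubules. SPC25 (hg19 chr2:169690642-169769881) was at 22.1, 23.5 and 24.2 CPM in the control libraries and at 36.0, 44.9 and 38.5 CPM with GLCC1 siRNA, and rose by 0.77 ± 0.11 (edgeR adjusted p = 1.0e-04), the highest fold change of the 51 genes. NDC80 rose by 0.50 ± 0.09 (44.5 ± 0.837 to 63.1 ± 4.97 CPM, SD, n = 3) and SPC24 by 0.46 ± 0.10 (40.7 ± 1.41 to 56.1 ± 4.97 CPM). NUF2, the fourth subunit, had a log2 fold change of 0.05 ± 0.11, so the subunits of this complex did not shift evenly. The NDC80 to NUF2 ratio was 0.594, 0.656 and 0.603 in the control libraries and 0.894, 0.758 and 0.897 with GLCC1 siRNA. CENPH, of the inner kinetochore, rose by 0.75 ± 0.09 (edgeR adjusted p = 3.6e-05), from 51.2, 52.9 and 52.4 CPM to 82.5, 97.4 and 84.3 CPM. Its gene (hg19 chr5:68485401-68506184) starts 11328 bases beyond the end of CCNB1 on the same strand, and these neighbours, singled out after their values were seen, moved in opposite directions in every GLCC1 siRNA library.

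The centromeric histone variant CENPA was at 29.0, 32.5 and 35.7 CPM in the control libraries and at 34.7, 42.9 and 38.8 CPM with GLCC1 siRNA. The groups overlapped, and its log2 fold change of 0.25 ± 0.11 did not pass (edgeR adjusted p = 0.10). The remaining kinetochore genes lay between −0.24 (DSN1, of the MIS12 complex) and 0.28 (CENPI), with CENPC at 0.11, CENPF at 0.15 and CENPE and MIS12 at −0.02. The value of CENPF was 0.0020 and that of CENPC −0.02 without replicate 2. For the kinesin motor gene CENPE the near-zero value of −0.02 joined replicates 1 and 3 at 94.6 and 94.0 CPM, below the lowest control library at 107, with replicate 2 at 136 CPM, above the highest control library at 113. It was −0.21 (edgeR adjusted p = 0.0021) without replicate 2.

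Of 6 APC/C and separase genes, 0 rose and 3 fell. CDC20, the activator of the APC/C in mitosis (hg19 chr1:43824652-43828874), was at 235, 256 and 230.3 CPM in the control libraries and at 154, 112 and 148 CPM with GLCC1 siRNA. All GLCC1 siRNA libraries lay well below all control libraries, and CDC20 fell by 0.80 ± 0.11 (edgeR adjusted p = 1.0e-04), or by 0.66 without replicate 2. PTTG1, securin, which keeps separase inactive, was at 119, 113 and 117.5 CPM and then at 78.7, 64.9 and 72.7 CPM, and fell by 0.69 ± 0.09 (edgeR adjusted p = 6.9e-05). UBE2C, the E2 enzyme that starts ubiquitin chains for the APC/C, fell by 0.28 ± 0.09 (edgeR adjusted p = 0.039), from 95.1 ± 4.02 to 78.4 ± 8.15 CPM (SD, n = 3), and lost the call without any of the control libraries (adjusted p = 0.086 to 0.16). FZR1, the APC/C activator of late mitosis and G1, had a value of −0.18 ± 0.15, which was 0.00 without replicate 2. ESPL1, separase itself, and UBE2S, the E2 that lengthens the chains, had values of 0.09 ± 0.10 and 0.11 ± 0.12. The pseudogene CDC20P1 was also counted, at 16.3, 17.4 and 18.5 CPM in the control libraries and at 9.96, 6.92 and 11.1 CPM with GLCC1 siRNA. It fell by 0.87 ± 0.15 (edgeR adjusted p = 5.8e-04). Whether its counts came from the copy or from CDC20 transcripts was not tested. UBE2SP1 was counted at means of 70.1 and 75.7 CPM, beside 70.4 and 75.7 CPM for UBE2S, so the split of counts between UBE2S and its copy is uncertain.

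**Figure D4:**
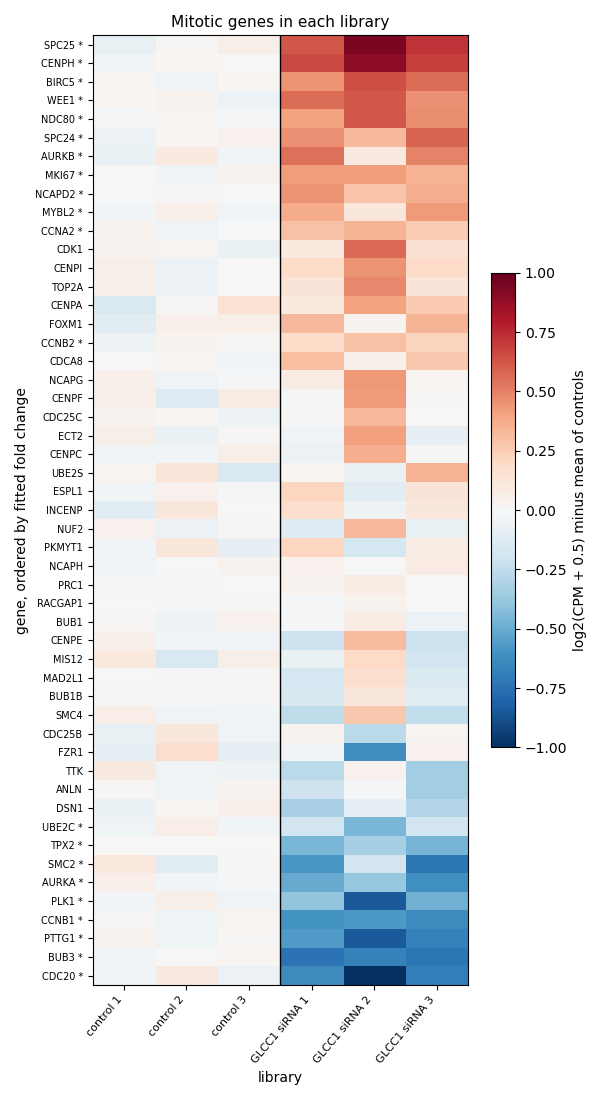
Each of the 51 mitotic genes (rows, ordered by fitted fold change, with an asterisk for the 21 called) in each of the 6 libraries (columns), coloured by log2(CPM + 0.5) minus the mean of the 3 control libraries. The genes at the top, SPC25 and CENPH first, are red and those at the bottom, BUB3 and CDC20 last, are blue in all 3 GLCC1 siRNA libraries, whereas in the middle replicate 2 often has the other colour than replicates 1 and 3.

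Of 7 genes for condensin and chromosome structure, 2 rose and 1 fell (42.9% called, beside 49.9% of the abundant genes). MKI67, which encodes the proliferation marker Ki-67 that coats mitotic chromosomes, was at 1335, 1301 and 1365 CPM in the control libraries and at 1779, 1778 and 1699 CPM with GLCC1 siRNA. It rose by 0.39 ± 0.07 (edgeR adjusted p = 7.5e-04), with replicate 2 among the others. TOP2A, which decatenates sister chromatids, was at 1010.0, 928 and 969 CPM in the control libraries and at 1061, 1352 and 1061 CPM with GLCC1 siRNA. The log2 fold change was 0.26 ± 0.10 (edgeR adjusted p = 0.058) with replicate 2 and 0.14 (adjusted p = 0.036) without it. The condensin subunits were split: NCAPD2, of condensin I, rose by 0.37 ± 0.08 (404 ± 2.30 to 522 ± 29.1 CPM, SD, n = 3). SMC2, the ATPase common to both condensins, was at 180.2, 155.5 and 169 CPM and then at 112, 148 and 102 CPM, and fell by 0.48 ± 0.12 (edgeR adjusted p = 0.0079), or by 0.65 without replicate 2. SMC4, its partner, had a value of −0.06 ± 0.12, which was −0.25 (adjusted p = 1.3e-04) without replicate 2, and NCAPG and NCAPH had values of 0.19 ± 0.11 and 0.04 ± 0.08. NCAPG was at 0.06 without replicate 2, and it was called higher, at 0.14 (edgeR adjusted p = 0.017), with the GC trend removed.

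Of 4 cytokinesis genes, edgeR called 0, beside 49.9% of the abundant genes, and 0 had an unadjusted p under 0.05. PRC1, which bundles midzone microtubules, and RACGAP1, of centralspindlin, were nearly the same in all 6 libraries, at 161 to 172 CPM and at 181 to 187 CPM. ECT2, the exchange factor for RhoA, and ANLN, which anchors the contractile ring, had log2 fold changes of 0.11 ± 0.11 and −0.19 ± 0.09. ANLN passed without replicate 2 at −0.27 (edgeR adjusted p = 3.1e-05), and DESeq2 on all libraries called 0 of the 4.

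Of 2 transcription factors of the G2/M programme, MYBL2 rose and FOXM1 was not called. MYBL2 (B-MYB) was at 191, 201.5 and 191 CPM in the control libraries and at 251, 211 and 261 CPM with GLCC1 siRNA, and rose by 0.31 ± 0.09 (edgeR adjusted p = 0.018), a call lost without any of the control libraries or GLCC1 siRNA replicate 1 or 3 (adjusted p = 0.051 to 0.089). FOXM1 was at 105.5, 118 and 118 CPM in the control libraries and at 143, 117 and 144 CPM with GLCC1 siRNA. Replicate 2 of FOXM1 fell among the control libraries, and its value of 0.24 ± 0.10 (edgeR adjusted p = 0.078) was 0.34 (adjusted p = 1.3e-06) without that library. Among called genes that textbooks list as targets of these factors, CCNB1, PLK1, AURKA and CDC20 were lower, and CCNB2 and BIRC5 were higher. Other listed targets were not called, such as CDC25B at −0.06 and CENPF at 0.15, so the named genes do not stand for all targets.

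A wider list of 95 other mitotic genes also held genes of both directions, with 25 higher, 15 lower and 55 not called and a median log2 fold change of 0.01. The called share was 42.1%, beside 49.9% of the abundant genes. Without GLCC1 siRNA replicate 2, 34 were higher and 29 lower (66.3%, beside 67.5%). Named by a rule of size, ZW10, which takes dynein to kinetochores, rose by 1.06 ± 0.11 (edgeR adjusted p = 1.2e-05), from 18.2, 17.4 and 22.1 CPM to 39.2, 43.98 and 38.1 CPM. PDS5B, a cohesin regulator, rose by 0.79 ± 0.11 and SKA2, of a microtubule-binding complex at kinetochores, by 0.74 ± 0.11. MIS18A, which helps to place CENPA at centromeres, fell by 1.65 ± 0.15 (edgeR adjusted p = 3.3e-06), from 37.4, 36.9 and 37.3 CPM to 8.71, 15.1 and 12.1 CPM. CKS1B, a small partner of cyclin-dependent kinases, fell by 1.28 ± 0.09 (edgeR adjusted p = 4.6e-07), from 48.5, 49.4 and 52.0 CPM to 20.7, 19.3 and 21.5 CPM. ARPP19, which inhibits the phosphatase PP2A-B55 in mitosis once MASTL has phosphorylated it, fell by 0.75 ± 0.10, while MASTL rose by 0.36 ± 0.08. These genes lie outside the 51 and, apart from MASTL, were picked for the size of their change. Over all genes of each list, the median absolute log2 fold change was 0.24 for the 95 and 0.24 for the 51.

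By role, 0 of 13 other APC/C genes, its inhibitor FBXO5 and the E2 enzyme UBE2D1 included, rose and 4 fell, namely ANAPC2 (−0.53), ANAPC5 (−0.37), CDC16 (−0.51) and CDC27 (−0.66), and 9 were not called. The called share of these 13 was 30.8%, beside 49.9% of the abundant genes, of which 29.8% were lower. Without GLCC1 siRNA replicate 2, with the GC trend removed or by library totals, FBXO5 and ANAPC7 were called higher as well. Of 20 other kinetochore genes, 6 rose, among them CENPK, CENPL, CENPO, CENPU and SKA2, and 1 fell (MIS18A). The called share of these 20 was 35.0%, also beside 49.9% of the abundant genes. Of 10 regulators of DREAM and MuvB, which repress or activate G2/M promoters, 5 rose and 3 fell (80.0% called, against 49.9% of abundant genes). LIN9, LIN52 and LIN54, of the MuvB core, rose by 0.42, 0.34 and 0.58, whereas RBBP4, also of that core, fell by 0.67. The pocket protein RBL1 rose by 0.72, its E2F partner E2F4 fell by 0.58, and CDKN1A, the p21 inhibitor that favours DREAM, fell by 0.55 (284 ± 24.1 to 195 ± 25.7 CPM, SD, n = 3, edgeR adjusted p = 0.0010). For comparison, 13 of 34 S phase genes rose and 5 fell (52.9% called, median 0.19), and 1 of 12 mitotic kinesins rose and 2 fell (25.0% called, median −0.01). These counts moved with the processing. For S phase genes, 8 rose without control replicate 2, 19 without GLCC1 siRNA replicate 2 and 21 with the GC trend removed, and of the kinesins 0 fell without control replicate 2 or by library totals. Of the genes outside the 51 named here, CENPL, CENPO, LIN9 and LIN52 lost the call when at least 1 of the control libraries, or for CENPO and LIN52 also GLCC1 siRNA replicate 1, was left out (edgeR adjusted p = 0.06 to 0.12). A difference between these lists was not tested.

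Of the 21 called mitotic genes, 16 kept their call in every alternative fit: WEE1, BIRC5, CENPH, NDC80, SPC24, SPC25, NCAPD2 and MKI67 higher, and CCNB1, PLK1, AURKA, TPX2, BUB3, CDC20, PTTG1 and SMC2 lower. CCNA2, CCNB2, AURKB, UBE2C and MYBL2 each lost the call in at least 1 fit, and 0 of the 21 turned direction in any. Exons of the called genes CCNA2, WEE1, PLK1 and NCAPD2 overlap those of other annotated genes (EXOSC9, small RNAs, ERN2 and MRPL51 in turn), and because the library kit does not mark strand, read pairs in those stretches cannot be told apart.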

How the data were processed

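RNA of a colorectal cancer line was sequenced in 6 libraries, 3 for each siRNA by sample title. The files deposited by the authors hold whole-number counts for each gene symbol, made per the labels and the published methods with TopHat 2.0.11 on hg19 and HTSeq in union mode. The counts carry no normalization, and the tally lines that HTSeq adds were used only for shares of reads without a gene.

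Genes with at least 5 counts summed over a condition in at least 1 condition were kept, as in the study, and 23074 genes were fitted in edgeR 4.0.16 (R 4.3.3) with TMM factors from 0.950 to 1.05, a prior count of 2 and the robust quasi-likelihood test, with Benjamini-Hochberg adjustment over all of them. CPM values use TMM-scaled library sizes. Depth was 11948790 to 19042516 read pairs on genes, and standard errors of the 51 genes were 0.07 to 0.15. The procedure was tested on simulated data. No pair of libraries was a copy of another.

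The 51 genes, the roles and the other gene lists were chosen with earlier results of these data known. All 51 may be named; values in every library are given for the called gene with the largest rise and fall in each role and for 13 further regulators. Of the other mitotic genes, the 3 largest called rises and falls with a mean of at least 10 CPM and groups that do not overlap are named; other genes were named after their values were seen. Gene positions, lengths and exonic GC content are from GENCODE 44 lifted to hg19, and promoter windows are from RefSeq. Alternatives were DESeq2 1.42.0, its size factors in edgeR, library totals without TMM factors, filters of 1 count in any library or of 10 in all libraries, a block on replicate number, a stricter adjusted p of 0.01 and each library left out. Offsets that remove a lowess trend on GC content from each library, and the same genes without them, were added after seeing the data; such offsets also take away any difference between the groups that follows GC content.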

Additional observations from a re-analysis of the deposited data

How the results depend on the processing

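Depth and 3 libraries per group limit small differences, and uncalled genes are not shown to be unchanged. Of the 51 genes, 12 rose and 9 fell by edgeR. With 1 library left out in turn, 8 to 19 rose and 8 to 16 fell, with a median log2 fold change of 0.024 to 0.089. The highest counts and the lowest median came without GLCC1 siRNA replicate 2 (19 and 16), which also gave 29 lower of the 95 other mitotic genes, against 13 to 15 without any other library. Scaling by library totals alone moved the median of all genes from 0.03 to 0.14, and the higher share of all calls from 47.0% to 62.9%, and with it 19 of the 51 rose, 8 fell and their median was 0.20. With the GC trend removed, 23 of the 51 rose and 23 of the other mitotic genes fell, and on the same genes without the GC offsets the median of the 51 was 0.13. Of 34 S phase genes 13 rose, with 21 once the GC trend was removed and 8 to 19 with 1 library left out. Of 12 mitotic kinesins 1 rose, with 4 by library totals or without the GC trend, 2 with the filter of 10 counts or on the genes with a GC value, and 1 to 2 with 1 library left out. The 2 kinesins that fell became 0 by library totals or at an adjusted p of 0.01, 1 with the replicate block or on the genes with a GC value, and 0 to 3 with 1 library left out. All other counts stayed within 1.5 times those with every library, DESeq2's included (3 gained, 0 lost).

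Fold changes near 0 turned sign only for genes that were not called. Scaling by library totals gave CDC25B 0.057, BUB1B 0.070, MAD2L1 0.077, CENPE 0.11, MIS12 0.10 and SMC4 0.064. The filter of 10 counts gave CENPE 0.023 and MIS12 0.021, and the filter of 1 count gave BUB1 −0.0005. Removing the GC trend gave CDC25B 0.10, BUB1 −0.015, NUF2 −0.0053 and FZR1 0.011, and the same genes without offsets gave BUB1B 0.0010, MAD2L1 0.0083, CENPE 0.038 and MIS12 0.035. Leaving out 1 library gave ranges of −0.11 to 0.031 for CDC25B, −0.039 to 0.15 for PKMYT1, −0.033 to 0.035 for BUB1, −0.13 to 0.0053 for BUB1B, −0.16 to 0.022 for MAD2L1, −0.022 to 0.20 for CENPC, −0.21 to 0.077 for CENPE, −0.095 to 0.14 for NUF2, −0.12 to 0.068 for MIS12, −0.29 to 0.0032 for FZR1, −0.027 to 0.19 for UBE2S, −0.25 to 0.033 for SMC4, −0.052 to 0.21 for ECT2 and −0.0045 to 0.021 for RACGAP1. The cause was not tested.

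Deviations of same-numbered libraries from their group means correlated at −0.16, −0.29 and −0.01 over 14875 genes, beside −0.24 to 0.25 for libraries of unlike number. Replicate 2 of each group leaned the opposite way on GC content, so these values cannot decide whether equal numbers mark a shared culture or batch. With the number as a block, 11 of the 51 rose and 8 fell, without CCNB2 and UBE2C.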
